A study of Homo sapiens with 12 samples.

Results

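NFKB1, NFKB2, RELA, RELB and REL encode the subunits of the transcription factor NF-κB, and NFKBIA, NFKBIE, TNFAIP3, BIRC3 and TNFAIP2 are targets of the factor, several of which restrain it. These 10 genes were picked by symbol, and 9 of them were found among 27249 Ensembl genes in tables that list 98711 genes in all. TNFAIP2 was not analysed here. The series compared sorafenib-resistant cells with their parental cells in Huh7, a line from a hepatocellular carcinoma, and HepG2, a liver tumour line now generally classed as a hepatoblastoma. Polyadenylated RNA was sequenced from 12 samples in 4 groups of 3, namely Huh7 resistant, Huh7 parental, HepG2 resistant and HepG2 parental. All 4 groups carry the genotype label WT. The resistant cells had first been given 10 μmol sorafenib, an oral inhibitor of RAF and receptor tyrosine kinases, with a change of medium at 24 h, and the dose was then stepped up over 8 months, whereas parental cells were not selected with the drug. Each line is represented by 1 resistant population as far as the labels tell, and nothing says that its samples came from separate cultures. The p-values below therefore measure the spread between these samples, which may be technical.

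NF-κB acts as dimers of these subunits. In resting cells IκB proteins, such as those from NFKBIA and NFKBIE, hold the dimers in the cytoplasm, and after stimulation by tumour necrosis factor or interleukin-1 the IκB kinase marks IκB for degradation in the canonical pathway. The alternative pathway instead processes the NFKB2 precursor p100 to p52, which pairs with RELB. The released factor turns on its own inhibitors, so that NFKBIA and TNFAIP3, the ubiquitin-editing enzyme A20, close a negative feedback loop, and in the liver the pathway is known for controlling hepatocyte survival and inflammation.

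Because these feedback genes are controlled through κB motifs close to their start sites, the matching sequences are shown first. RefSeq promoter windows on GRCh38.p14, each 300 bases long with 250 bases before and 50 bases after the start, were matched for 8 of the 10 names. RELB and NFKBIE had no entry. The 10-base κB consensus, searched on both strands, was found in 5 of the 8 windows, against 10.8% of 27305 promoters. The windows of RELA, NFKB2 and TNFAIP2 held no match to these letters, and that of RELA is set from a RefSeq start at 65663857, upstream of the start at 65663094 in the expression tables. Distances below count from the RefSeq start. For REL and TNFAIP3 this start (60881574 and 137867259) lies downstream of the start in the expression tables (60881521 and 137867188), so that their matches fall inside the gene as those tables delimit it. Each line below gives the gene, its 30-base stretch on the strand of the gene, and the matching bases in capitals.

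NFKB1, chr4:102501300-102501329 (+), first capital 49 bases before the RefSeq start: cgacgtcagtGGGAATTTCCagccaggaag

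REL, chr2:60881517-60881546 (+), 47 bases before the RefSeq start, with a second match shifted by 1 base: cgtcagccgcGGGAAATTCCcctcccgcca

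NFKBIA, chr14:35404811-35404840 (−), 81 bases before the RefSeq start: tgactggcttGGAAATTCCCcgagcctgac

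TNFAIP3, chr6:137867182-137867211 (+), 67 bases before the RefSeq start: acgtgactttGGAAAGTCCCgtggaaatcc

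TNFAIP3, chr6:137867194-137867223 (+), 55 bases before the RefSeq start: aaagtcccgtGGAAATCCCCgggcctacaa

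BIRC3, chr11:102317275-102317304 (+), 199 bases before the RefSeq start: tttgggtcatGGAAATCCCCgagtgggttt

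BIRC3, chr11:102317339-102317368 (+), 135 bases before the RefSeq start: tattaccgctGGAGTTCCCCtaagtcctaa

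The genes with a match moved in both directions in resistant Huh7 cells, where NFKBIA and NFKB1 rose and TNFAIP3 and REL fell. BIRC3, too low to be tested, was 3.35-fold lower there in mean FPKM. When a trend with GC content was taken off in Huh7, TNFAIP3 kept its call, NFKBIA and NFKB1 lost theirs and REL turned direction. BIRC3 was not in that fit. In resistant HepG2 cells none of the tested genes with a match was called. NFKB1 and TNFAIP3 were lower in all resistant HepG2 samples and were called with the GC trend off. These letters do not show whether the factor was bound.

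Expression was deposited as normalised values, treated here as FPKM. This unit scales fragments by gene length and library depth, which allows levels of different genes to be compared. The low values step in whole reads, from which the depth came out at 16158248 to 19286177 reads for the Huh7 samples and 12290080 to 18281739 reads for the HepG2 samples. Correlations between samples of 1 group (Pearson's r across genes, which are not independent) were 0.964 to 0.986, above the 0.826 to 0.947 between resistant and parental samples of 1 line. All 6 hepatocyte markers, among them ALB, APOA1 and AFP, were found, and their summed level was 4211 to 4444 FPKM in Huh7 resistant, 6891 to 8372 in Huh7 parental, 2635 to 2969 in HepG2 resistant and 3859 to 4824 in HepG2 parental samples. The sum was lower in resistant cells of both lines through AFP and ALB, and AFP was 2115 to 2415 FPKM in resistant and 4623 to 6306 FPKM in parental Huh7 samples. APOA1 went the other way in Huh7, at 142 to 203 FPKM in resistant and 64.8 to 134 FPKM in parental samples, and so did HNF4A, at 72.7 to 85.5 and 40.5 to 54.1 FPKM. Sums of 6 immune cell markers ran from 1.67 to 8.59 FPKM. Sums of 6 fibroblast and endothelial cell markers were 3.28 to 3.85 FPKM in resistant and 5.64 to 8.20 FPKM in parental HepG2 samples, and 4.53 to 5.55 and 3.73 to 4.39 FPKM in Huh7, with DCN and CDH5 near 0 throughout. The part of these marker levels in the results was not tested. In such bulk samples, fewer cells that express a gene and less RNA of it per cell cannot be told apart.

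**Figure D1:**
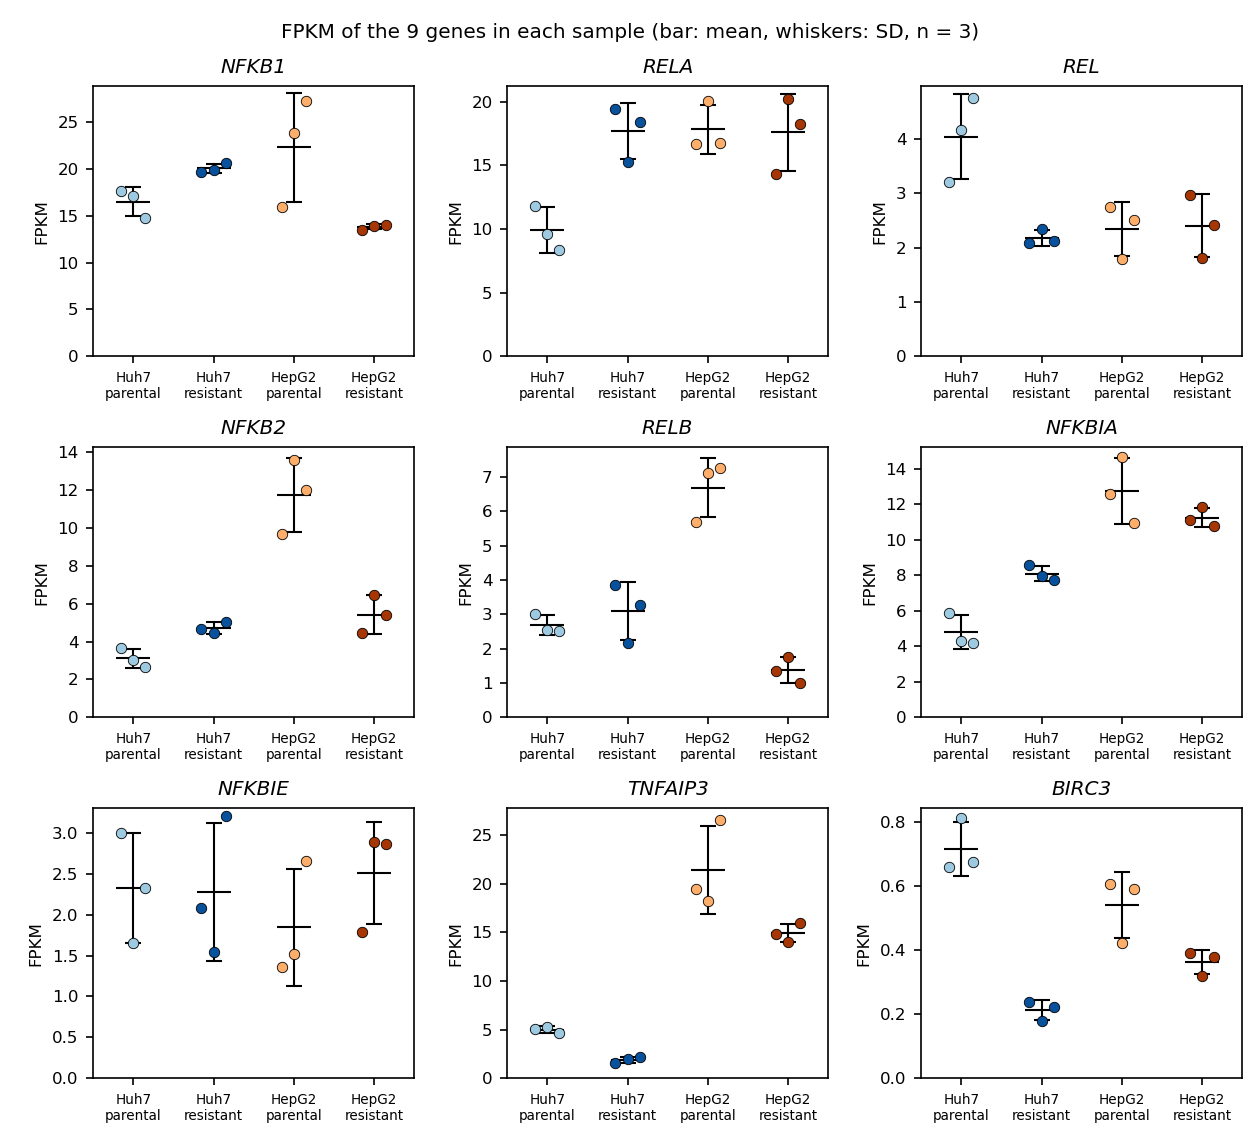
FPKM (vertical axes, each from 0) of the 9 genes in every sample, by cell line and resistance, with a bar at the mean and whiskers for the SD (n = 3). In Huh7 the TNFAIP3 values of 1.53 to 2.17 in resistant samples lie below the 4.64 to 5.30 of parental samples, and in HepG2 the RELB values of 0.996 to 1.77 lie below 5.70 to 7.25.

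Of the canonical subunits, NFKB1 and RELA had the higher levels. NFKB1 encodes p105, the precursor of the p50 subunit, and RELA encodes p65, the chief activating partner of p50. NFKB1 (ENSG00000109320, GRCh38 chromosome 4, 102501329 to 102617302, plus strand) was at 17.6, 17.1 and 14.7 FPKM in parental and 19.7, 19.8 and 20.6 FPKM in resistant Huh7 samples. In HepG2 it was at 15.9, 23.8 and 27.2 FPKM in parental and 13.5, 13.9 and 14.0 FPKM in resistant samples. No resistant sample lay within the range of its parental samples, with the resistant samples above the parental ones in Huh7 and below them in HepG2. The parental HepG2 samples were the most spread of the 4 groups, and replicate 1 was the lowest of them.

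RELA (ENSG00000173039, chromosome 11, 65653596 to 65663094, minus strand) was at 11.8, 9.63 and 8.31 FPKM in parental and 19.5, 15.2 and 18.4 FPKM in resistant Huh7 samples. Its HepG2 levels were 16.6, 20.1 and 16.7 FPKM in parental and 14.3, 20.2 and 18.3 FPKM in resistant samples. Parental Huh7 cells were the low group, and the other 3 groups overlapped one another in the order of their means. REL (ENSG00000162924, chromosome 2, 60881521 to 60931610, plus strand), which encodes c-Rel, a subunit best known from lymphocytes, stood far lower. It was at 3.21, 4.16 and 4.76 FPKM in parental Huh7 and 2.08, 2.35 and 2.11 FPKM in resistant Huh7 samples, with all parental samples above all resistant ones. In HepG2 it ranged from 1.79 to 2.74 FPKM in parental and from 1.81 to 2.97 FPKM in resistant samples, which overlapped.

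Both subunits of the alternative pathway were highest in parental HepG2 cells. NFKB2 (ENSG00000077150, chromosome 10, 102394110 to 102402529, plus strand) was at 9.66, 13.6 and 11.995 FPKM in parental and 4.42, 6.47 and 5.38 FPKM in resistant HepG2 samples. In Huh7 it was at 3.64, 3.04 and 2.64 FPKM in parental and 4.64, 4.45 and 5.04 FPKM in resistant samples. Every resistant sample was thus below the parental samples in HepG2 and above them in Huh7. RELB (ENSG00000104856, chromosome 19, 45001430 to 45038198, plus strand), the transactivating partner of p52, was at 5.70, 7.10 and 7.25 FPKM in parental and 1.36, 1.77 and 0.996 FPKM in resistant HepG2 samples. These values stand for 227 to 346 and 52 to 98 reads, respectively. In Huh7 it was at 3.01, 2.54 and 2.51 FPKM in parental and 3.84, 2.17 and 3.26 FPKM in resistant samples, with resistant replicate 2 below all parental samples and the other two above them.

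Among the inhibitors, NFKBIA (ENSG00000100906, chromosome 14, 35401511 to 35404749, minus strand) encodes IκBα, the main cytoplasmic inhibitor of p50 and p65 dimers. It was at 5.89, 4.30 and 4.17 FPKM in parental and 8.55, 7.95 and 7.74 FPKM in resistant Huh7 samples, which did not overlap. In HepG2 the levels were 12.6, 14.7 and 10.96 FPKM in parental and 11.1, 11.8 and 10.8 FPKM in resistant samples, which did. NFKBIE (ENSG00000146232, chromosome 6, 44258166 to 44265788, minus strand), which encodes IκBε, ranged from 1.36 to 3.20 FPKM over the 12 samples. Its 4 groups overlapped throughout.

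TNFAIP3 (ENSG00000118503, chromosome 6, 137867188 to 137883312, plus strand) separated the lines most. It was at 5.05, 5.30 and 4.64 FPKM in parental and 1.53, 2.00 and 2.17 FPKM in resistant Huh7 samples. In HepG2 it was at 19.5, 18.3 and 26.5 FPKM in parental and 14.9, 14.0 and 15.9 FPKM in resistant samples. All resistant samples were below all parental samples of their line. BIRC3 (ENSG00000023445, chromosome 11, 102317450 to 102339403, plus strand), the ubiquitin ligase cIAP2 of the tumour necrosis factor receptor complex, was under 1 FPKM in every sample. It was at 0.660, 0.813 and 0.675 FPKM in parental and 0.238, 0.179 and 0.224 FPKM in resistant Huh7 samples, or 82 to 103 and 26 to 34 reads. In HepG2 the levels were 0.608, 0.422 and 0.592 FPKM in parental and 0.393, 0.320 and 0.379 FPKM in resistant samples. Parental samples were above resistant samples in both lines.

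Ordered by mean level across the 4 groups, parental HepG2 stood first for NFKB1, RELA, NFKB2, RELB, NFKBIA and TNFAIP3. The order was fully separated for TNFAIP3 and BIRC3, each group lying clear of the next. NFKB1 did not separate parental HepG2 from resistant Huh7 samples, NFKB2 did not separate resistant HepG2 from resistant Huh7, RELB did not separate resistant from parental Huh7, and NFKBIA did not separate the HepG2 groups. For REL, parental Huh7 stood first and the other 3 groups overlapped their neighbours.

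Between the parental lines, the 8 genes that reached 1 FPKM in at least 3 samples were compared in a limma fit over all 12 samples, on log2(FPKM + 1). This scale understates changes of low genes. A gene was called at a Benjamini-Hochberg adjusted p-value under 0.05 over 13800 genes. Of the 8, 7 were called, against 67.2% of all genes tested, and 6 of the 8 had groups that did not overlap, against 68.7%. One gene, REL, was higher in Huh7 and 6 were lower, where 39.8% and 27.4% of all genes were called in these directions. Past a log2 difference of 1 as well were 4 genes, TNFAIP3, NFKB2, NFKBIA and RELB, against 30.2% of all genes. TNFAIP3 was 4.29-fold lower in parental Huh7 than in parental HepG2 cells by the ratio of mean FPKM (log2 difference −1.89 ± 0.14 SE, limma adjusted p = 3.04e-07). NFKB2 was 3.78-fold lower (−1.63 ± 0.15, limma adjusted p = 2.0e-06). NFKBIA was 2.66-fold lower (−1.25 ± 0.13, limma adjusted p = 6.08e-06). RELB, RELA and NFKB1 were lower by differences of −1.06, −0.79 and −0.39 (limma adjusted p = 0.000187, 0.000869 and 0.0488), and the call of NFKB1 was lost in 11 of 12 fits that left out 1 sample, all but the one without HepG2 parental replicate 1. REL was 1.72-fold higher (0.59 ± 0.16, limma adjusted p = 0.00677), a difference that came to −0.0068 when a trend with GC content was taken off against the mean of all samples.

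In resistant Huh7 cells, 4 genes of the family rose and 2 fell, of which NFKB2 and REL turned direction when a trend with GC content was taken off. RELA rose 1.78-fold in mean FPKM, NFKBIA 1.69-fold, NFKB2 1.52-fold and NFKB1 1.22-fold, while TNFAIP3 fell 2.63-fold and REL 1.85-fold. These 6 of 8 genes compare with 70.1% of the 12554 genes tested in this line, of which 32.7% were higher and 37.4% lower, and 6 of the 8 had groups that did not overlap, against 74.5%. The shares are near those of all genes. The difference of log2(FPKM + 1) was 0.78 ± 0.15 SE for RELA (limma adjusted p = 0.00158), 0.66 ± 0.13 for NFKBIA (limma adjusted p = 0.00231) and 0.48 ± 0.12 for NFKB2 (limma adjusted p = 0.00751). For TNFAIP3, the only one of the 6 past 1 on this scale, it was −1.05 ± 0.12 (limma adjusted p = 0.000142), and for REL −0.65 ± 0.14 (limma adjusted p = 0.00263). Past both limits were 22.6% of all genes. NFKB1 was called narrowly (0.27 ± 0.10, limma adjusted p = 0.0443), and in 5 of 6 fits without 1 sample, all but that without Huh7 parental replicate 1, it was not.

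RELB and NFKBIE did not pass the test in Huh7. The 95% confidence interval of the difference ran from −0.25 to 0.50 for RELB (limma adjusted p = 0.496) and from −0.52 to 0.45 for NFKBIE (limma adjusted p = 0.895). BIRC3 was below the level needed for the test. Its mean was 0.214 ± 0.031 FPKM (SD, n = 3) in resistant and 0.716 ± 0.085 FPKM in parental samples, 3.35-fold lower, and an exact permutation test (two-sided) of 3 against 3 samples gave p = 0.1, the smallest it can give. With no minimum level BIRC3 was called (log2 difference −0.50, limma adjusted p = 0.00194). Its GC content of 37.4% is the lowest among the members found. No difference with the GC trend off was formed for it, so the part of that trend in its fall was not tested.

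Correction for GC content changed several Huh7 calls. The genes that rose have GC contents of 49.6% (NFKB1), 56.0% (NFKBIA), 60.3% (RELA) and 61.5% (NFKB2), and those that fell 39.5% (REL) and 49.9% (TNFAIP3). RELB (65.0%) and NFKBIE (61.4%), the first with the highest GC content of the 8, were not called. With the trend on GC content taken off each sample, TNFAIP3 (−1.25, limma adjusted p = 8.98e-05) and RELA (0.24, limma adjusted p = 0.0141) were still called in the same direction. NFKBIA came to 0.16 and NFKB1 to 0.10 (limma adjusted p = 0.121 and 0.184). REL turned to 0.15 and NFKB2 to −0.037 (limma adjusted p = 0.133 and 0.670). NFKBIE was then called lower (−0.56, limma adjusted p = 0.0214).

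**Figure D2:**
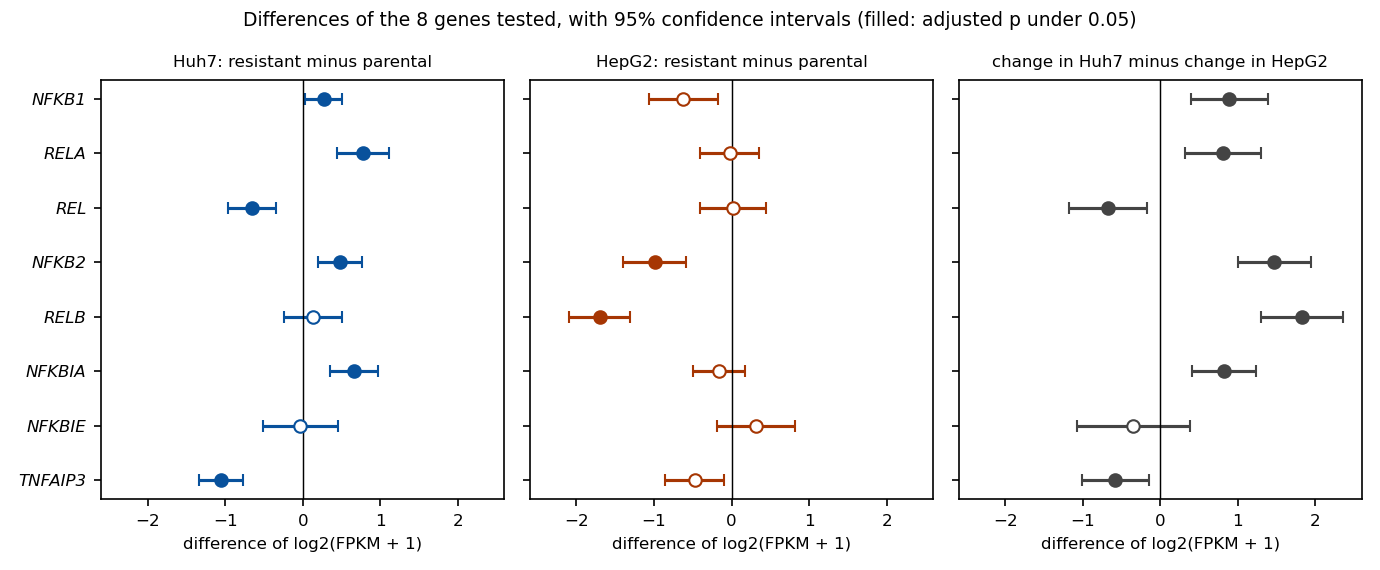
Differences of log2(FPKM + 1) for the 8 genes tested (horizontal axes), resistant minus parental in Huh7 and in HepG2 and the Huh7 change minus the HepG2 change, with 95% confidence intervals; filled points have an adjusted p-value under 0.05. RELA stands at 0.78 in Huh7 and −0.03 in HepG2, and RELB at 0.13 and −1.70.

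In resistant HepG2 cells, the alternative pathway subunits fell. RELB was 4.86-fold lower in mean FPKM (log2 difference −1.70 ± 0.17 SE, limma adjusted p = 0.000773) and NFKB2 2.17-fold lower (−0.99 ± 0.18, limma adjusted p = 0.00796). These were 2 of 8 genes tested, against 20.0% of 11762 genes, and both were lower, where 8.43% of all genes were. RELB was the 1 gene also past 1 on the log2 scale, against 6.27% of all genes. Both kept their call in every fit without 1 sample and in every other setting tried, apart from NFKB2 where the log2 limit of 1 was added. Groups did not overlap for 4 of the 8 genes, NFKB1, NFKB2, RELB and TNFAIP3, against 40.4% of all genes.

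NFKB1, at 22.3 ± 5.81 FPKM in parental and 13.8 ± 0.257 FPKM in resistant HepG2 samples (SD, n = 3), missed the threshold (−0.62 ± 0.20, limma adjusted p = 0.0572). Leaving out HepG2 parental replicate 1 gave −0.84 (limma adjusted p = 0.0175). TNFAIP3, at 21.4 ± 4.48 and 14.9 ± 0.953 FPKM, missed it as well (−0.47 ± 0.17, limma adjusted p = 0.0781). With the GC trend off they came to −0.67 and −0.53 (limma adjusted p = 0.0217 and 0.0427), and RELB and NFKB2 to −2.04 and −1.19. Among the 11 other settings tried, NFKB1 was called in 8 and TNFAIP3 in 6. In the 6 fits without 1 sample, NFKB1 was called in 1 and TNFAIP3 in 0.

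The remaining genes were not called in HepG2. The 95% interval of the difference was −0.40 to 0.35 for RELA, −0.41 to 0.45 for REL, −0.49 to 0.18 for NFKBIA and −0.18 to 0.81 for NFKBIE (limma adjusted p = 0.928, 0.950, 0.465 and 0.332). BIRC3 averaged 0.364 ± 0.039 FPKM in resistant and 0.541 ± 0.103 FPKM in parental samples (SD, n = 3; exact permutation p = 0.1, the smallest it can give), and with no minimum level it was not called (limma adjusted p = 0.270).

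Whether a gene changed differently in the lines was tested as an interaction over all 12 samples. It was called for 7 of the 8 genes, against 56.3% of the 13800 genes tested, with 5 positive (Huh7 above HepG2) and 2 negative, against 23.1% and 33.2% of all genes. Of the 8, RELB and NFKB2 had the largest differences of change, 1.83 ± 0.24 SE and 1.47 ± 0.21 (limma adjusted p = 0.000113 and 0.000202), and were the 2 past 1, against 28.8% of all genes. NFKB1 (0.89 ± 0.22, limma adjusted p = 0.00569), NFKBIA (0.82 ± 0.19, limma adjusted p = 0.00322) and RELA (0.81 ± 0.22, limma adjusted p = 0.00946) followed. These 5 kept their call in all 12 fits without 1 sample and in the other settings tried, apart from that log2 limit.

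REL and TNFAIP3 differed the other way, by −0.67 ± 0.23 and −0.58 ± 0.20 (limma adjusted p = 0.0259 and 0.0272). REL kept its call in 5 of 12 fits without 1 sample and turned to 0.20 with the GC trend off, and TNFAIP3 kept its call in 7 of 12. NFKBIE was not called (interval −1.08 to 0.38, limma adjusted p = 0.391). The resistant and parental samples of each line enter both the within-line differences and this test.

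**Figure D3:**
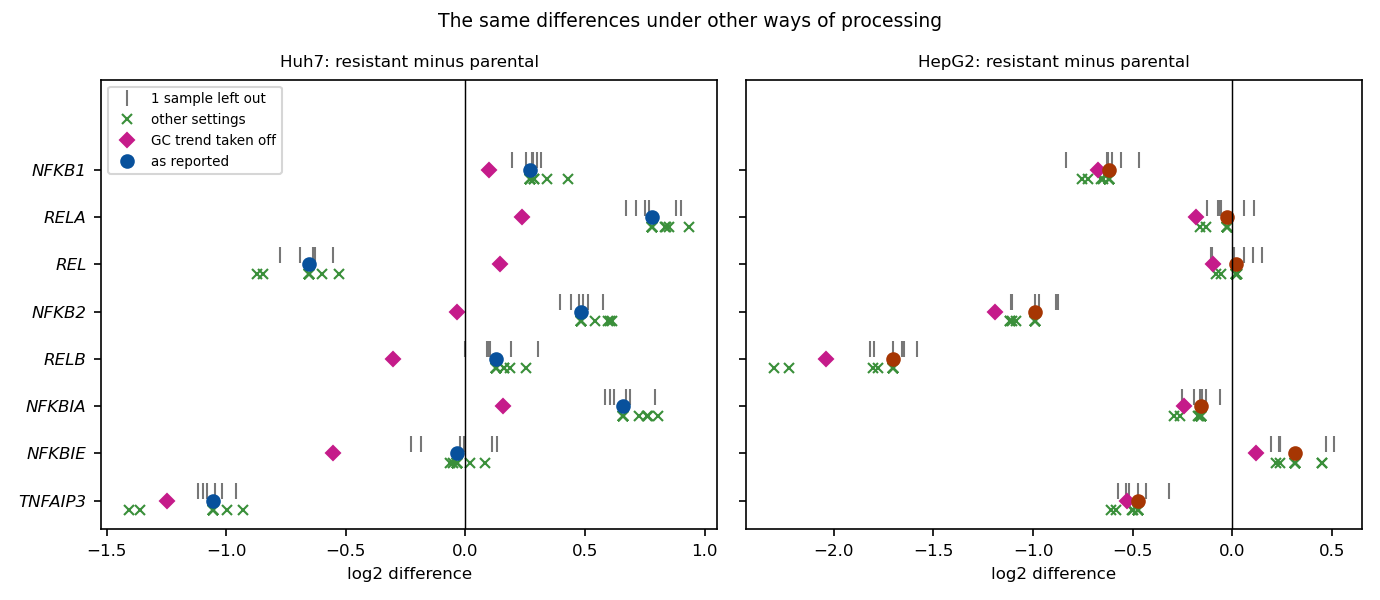
Differences of log2(FPKM + 1), resistant minus parental, for the 8 genes as reported (circles), with 1 sample left out (ticks), with the GC trend taken off (diamonds) and under the other settings (crosses). In Huh7 the diamond of REL is at 0.15 and its circle at −0.65, whereas in HepG2 the symbols of RELB all lie below −1.

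The other genes of the pathway were taken from 4 lists of 74 genes, of which 72 were analysed. Counts of genes called in these lists stand beside 32.7% higher and 37.4% lower among all genes tested in Huh7, and 11.6% and 8.43% in HepG2. Receptors and adaptors had 5 of 15 tested genes higher and 5 lower in Huh7 (median difference 0.18, against −0.04 over all genes). Among the higher ones, TNFRSF1B was at 1.04, 1.24 and 1.23 FPKM in resistant and 0.592, 1.01 and 0.493 FPKM in parental samples. TNFRSF1B thus passed the level for the test through its resistant samples, which bears on its direction and on this count. TNFRSF1A, the main tumour necrosis factor receptor, rose from 4.17 ± 1.02 to 27.5 ± 2.66 FPKM (SD, n = 3; log2 difference 2.48), and MYD88, the adaptor of Toll-like and interleukin-1 receptors, from 14.0 ± 2.49 to 35.3 ± 2.35 FPKM (1.29). BIRC2, which encodes cIAP1, fell from 20.6 ± 2.59 to 5.85 ± 0.547 FPKM (−1.65), and IL1R1, an interleukin-1 receptor, from 10.1 ± 1.27 to 3.60 ± 0.611 FPKM (−1.27). With the GC trend off, MYD88, BIRC2 and IL1R1 came to 0.84, −0.88 and −0.76, all still called. In HepG2, 3 of 16 genes were higher and 1 lower (median 0.09, against 0.12 over all genes). There TLR2, a Toll-like receptor, rose from 0.847 ± 0.162 to 2.11 ± 0.495 FPKM (0.74), and MYD88 from 24.3 ± 5.61 to 40.4 ± 3.40 FPKM (0.74). TLR2 was at 1.02, 0.70 and 0.82 FPKM in parental samples, so it passed the level for the test through resistant samples. This bears on its direction and on the count of higher genes. The call of TLR2 was lost without HepG2 resistant replicate 3, and that of MYD88 without HepG2 resistant replicate 2 or 3 or HepG2 parental replicate 1 and under upper-quartile scaling. Both were also lost with no filter on low values. TNFRSF12A, the receptor of the cytokine TWEAK, fell from 5.33 ± 0.778 to 1.69 ± 0.458 FPKM (−1.24).

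Kinases and the linear ubiquitin ligase, which pass the signal on, had 5 of 13 genes higher and 5 lower in Huh7. The median was 0.14 against −0.04 over all genes. Among the higher ones, IKBKG was at 1.78, 1.51 and 1.95 FPKM in resistant and 1.12, 0.908 and 0.859 FPKM in parental samples. IKBKG thus passed the level for the test through resistant samples, which bears on this count. IKBKE, an IκB kinase-related kinase, and RBCK1, the ligase subunit HOIL-1, rose by 0.71 and 0.67, and the rise of IKBKE was lost with the GC trend off (0.16, limma adjusted p = 0.235). TBK1, a relative of IKBKE, fell from 11.4 ± 1.99 to 4.18 ± 0.753 FPKM (−1.26), and MAP3K7, the kinase TAK1 upstream of the IκB kinase, from 17.2 ± 2.63 to 6.90 ± 0.681 FPKM (−1.20). With the GC trend off these differences shrank to −0.41 for TBK1, −0.26 for MAP3K7 and 0.19 for RBCK1, which were still called. In HepG2, TAB3, a partner of TAK1, was the 1 gene of 12 called, rising from 7.86 ± 1.89 to 17.3 ± 3.26 FPKM (1.05).

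The list of other inhibitors also held nuclear IκB proteins such as those of NFKBIZ and BCL3, which do not act only as inhibitors. Its medians were −0.32 in both lines, against −0.04 over all genes in Huh7 and 0.12 in HepG2. In Huh7, 2 of its 12 tested genes were higher and 6 lower, and in HepG2 3 of 11 were lower. Among the lower genes in Huh7, CYLD was at 0.944, 1.22 and 0.881 FPKM in resistant and 1.98, 2.41 and 2.25 FPKM in parental samples. CYLD thus passed the level for the test through parental samples, which bears on this count. NFKBIZ, the nuclear IκB protein IκBζ, was called lower in each line. It fell from 23.0 ± 0.751 to 11.2 ± 1.04 FPKM in Huh7 (−0.97) and from 7.97 ± 1.07 to 2.23 ± 0.302 FPKM in HepG2 (−1.47). ITCH, a ubiquitin ligase that works with A20, fell in Huh7 (−0.99), where TNIP2, which binds A20, rose (0.78), and with the GC trend off they came to −0.34 and 0.25, both still called. TRIB3, a stress-induced pseudokinase, rose in Huh7 from 41.3 ± 8.12 to 83.0 ± 9.13 FPKM (1.00, or 0.49 with the GC trend off) and fell in HepG2 from 398 ± 118 to 156 ± 20.8 FPKM (−1.30).

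Of the inducible target genes, 10 reached the level for the test in Huh7, of which 2 were higher and 5 lower, and 9 in HepG2, of which 6 were lower. In Huh7, 2 of the 10 genes (CXCL10 and CD83), and in HepG2, 4 of the 9 (CXCL2, CXCL8, LCN2 and CD83), reached 1 FPKM in parental samples and in no resistant sample, so they could enter the test only as lower genes and these counts cannot be set against all genes. CXCL8, the neutrophil chemokine interleukin-8, fell from 20.9 ± 1.91 to 3.03 ± 0.473 FPKM in Huh7 (−2.44, limma adjusted p = 6.16e-06) and from 23.4 ± 4.06 to 0.741 ± 0.121 FPKM in HepG2 (−3.79, limma adjusted p = 2.36e-05). In Huh7 the difference was −1.39 with the GC trend off. CXCL10, an interferon-inducible chemokine, fell in Huh7 from 2.59 ± 0.165 to 0.252 ± 0.126 FPKM (−1.52, or −0.58 with the GC trend off). SDC4, a cell surface proteoglycan, fell in HepG2 from 203 ± 49.1 to 25.1 ± 2.58 FPKM (−2.94) and rose in Huh7 from 114 ± 18.6 to 157 ± 7.55 FPKM (0.47), a call lost without Huh7 resistant replicate 1. ICAM1, an adhesion molecule, rose in Huh7 (0.52), although with the GC trend off it came to −0.029. The interaction was called for 9 of 11 target genes, 6 positive and 3 negative. Among all genes 56.3% were called, 23.1% positive and 33.2% negative. However, CXCL10 and LCN2 passed the filter only through parental samples of 1 line, which set the direction they could take. These counts therefore cannot be set against all genes either.

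**Figure D4:**
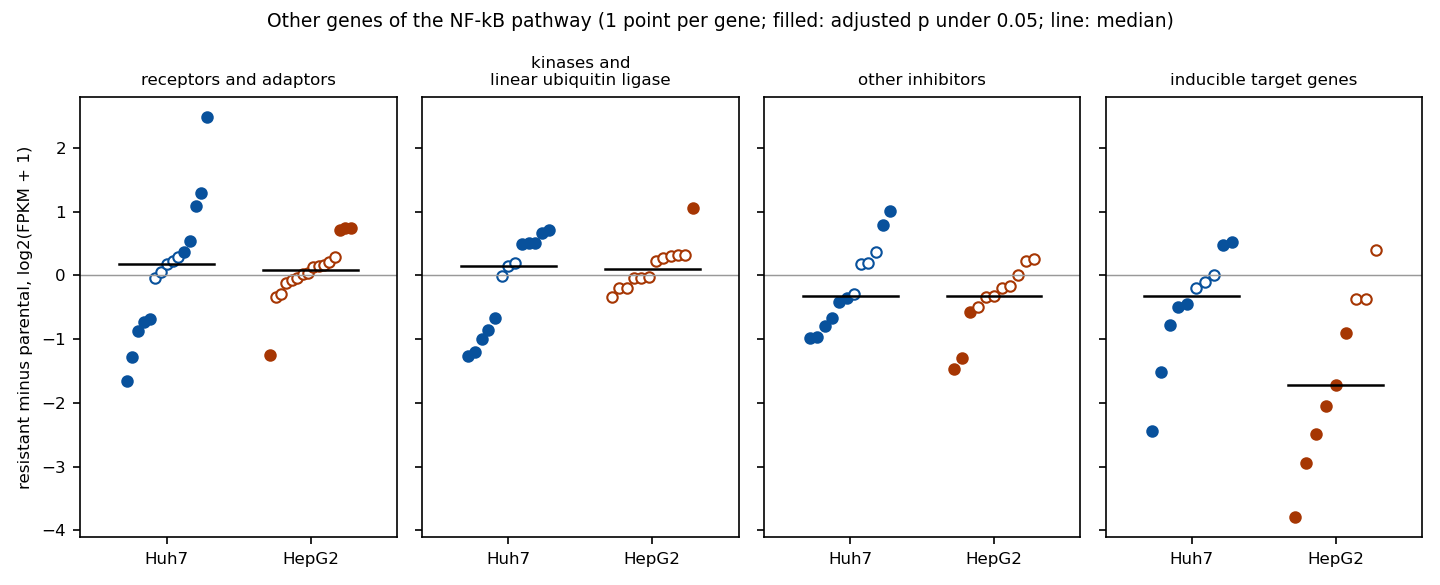
Differences of log2(FPKM + 1), resistant minus parental (vertical axis), of the genes tested in 4 lists of the pathway, by cell line, with filled points for an adjusted p-value under 0.05 and a line at the median. The HepG2 target genes reach down to −3.79 (CXCL8), and 4 of the 9 shown, like 2 of the 10 in Huh7, passed the level for the test through parental samples alone, which bears on their median lines.

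Over the 12 samples, the genes whose log2(FPKM + 1) ran most like that of NFKBIA included PPM1G and SLC41A1 (Pearson's r = 0.989 and 0.988 among 13800 genes). For NFKB2 they were RPS6KL1, PHC2 and GART (r = 0.992, 0.988 and 0.985). The points share libraries and fall into 4 groups, so these values describe the pattern across groups.

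Some reads cannot be assigned to 1 gene, since the sources do not say whether counting used strand. NFKB1 overlaps a noncoding gene on its own strand that averaged up to 7.20 FPKM in a group and another on the opposite strand at up to 6.15 FPKM. REL overlaps 2 genes on its strand at up to 3.10 and 1.75 FPKM. The genes that overlap the other members were all below 1 FPKM.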

How the data were processed

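Poly(A)-selected RNA libraries of Huh7 and HepG2 cells, with and without sorafenib resistance, were sequenced. The labels and the study's methods name different extraction reagents. The submitters' processing notes name bcl2fastq and GRCh38, and the aligner and counter are not given in the sources used here. The authors deposited 1 table per sample with normalised values per gene, treated here as FPKM (RPKM cannot be told apart). Of the values worth up to 2000 reads, 96.2% lay within 0.05 of a whole read once each library's step had been estimated from 6896 single-exon genes.

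Samples were grouped by their labels. Genes that reached 1 FPKM in 3 or more samples of a fit entered limma 3.58.1 (R 4.3.3) on the log2(FPKM + 1) scale, with empirical Bayes variances trended on mean expression, two-sided tests and Benjamini-Hochberg adjustment over all genes tested. The resistant and parental samples of a line were fitted without the other line, and the interaction and the parental comparison in 1 fit of all 12 samples. BIRC3 was below the filter. Data were also simulated from the parental means and the library depths. In them the fit called 68.0% of 97 genes changed 2-fold and 97.9% of 95 changed 4-fold in Huh7 (12502 genes). In HepG2 (11445 genes) it called 78.7% of 89 and 99.0% of 96. The simulation used a set dispersion, not estimated from these samples, and changed far fewer genes than were called in either line. These rates may therefore not hold for the reported fits.

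Alternatives covered the pseudocount, the filter, the scaling, limma-voom on recovered reads, a lowess trend on GC content, a replicate block and each sample left out. Named genes are the members, up to 2 higher and 2 lower called genes of each pathway list with the largest difference per line, and the 3 genes most correlated with NFKBIA and NFKB2, of which 1 is not reported here. Members and lists were chosen with earlier results of these data known. SOD2 has more than 1 entry and, like IER3, was not used here.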

Additional observations from a re-analysis of the deposited data

Results flagged for a closer look

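The change with resistance differed between Huh7 and HepG2 for 7 of the 8 genes tested, by the interaction term in limma over 12 samples. Over all 13800 genes tested, 56.3% were called in the same way. The change in Huh7 minus the change in HepG2, on log2(FPKM + 1), was 1.83 for RELB, 1.47 for NFKB2, 0.89 for NFKB1, 0.82 for NFKBIA and 0.81 for RELA. For REL it was −0.67 and for TNFAIP3 −0.58. NFKB2 and NFKB1 had resistant samples above all parental samples in Huh7 and below all of them in HepG2. Taking off the GC trend left −0.037 for NFKB2 and 0.10 for NFKB1 in Huh7 (limma adjusted p = 0.670 and 0.184). TNFAIP3 was lower in all resistant samples of both lines, by −1.05 in Huh7 and −0.47 in HepG2. Its call was lost without any one of Huh7 resistant replicate 1, Huh7 parental replicate 2, HepG2 resistant replicate 3 and HepG2 parental replicates 1 and 2, with −0.29 under upper-quartile scaling and −0.39 under median-ratio scaling. The call of REL was lost without any one of Huh7 resistant replicates 1 and 3, Huh7 parental replicates 2 and 3, HepG2 resistant replicates 1 and 3 and HepG2 parental replicate 2. With the GC trend off, the difference for REL turned to 0.20 (limma adjusted p = 0.170).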

How the results depend on the processing

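Of the calls reported for each gene, TNFAIP3 and RELA in Huh7, RELB and NFKB2 in HepG2, 5 of the 7 interactions and 5 of the 7 parental differences kept direction and call in every setting tried, apart from an added log2 limit of 1. Without each sample in turn, the number of members called was 5 to 6 in Huh7, 2 to 3 in HepG2, 5 to 7 for the interaction and 6 to 7 between the parental lines. Over all genes, these fits called 7126 to 8376 in Huh7 and 840 to 2224 in HepG2. They called 6618 to 7831 for the interaction and 8119 to 9357 between the parental lines. The pathway lists had 30 to 34 calls in Huh7 (35 as reported) and 9 to 14 in HepG2 (14 as reported), with 9 without HepG2 parental replicate 2 or 3. The number of members called in Huh7 was 3 with the GC trend off, with or without the replicate block. It was 1 when the log2 difference also had to exceed 1. Over all 12554 genes tested in Huh7, 8797 were called as reported, 7989 with the GC trend off and 7606 with the block as well. The number of members called in HepG2 was 4 under upper-quartile or median-ratio scaling, with the GC trend off, with the replicate block and with both. It was also 4 in a fit of all 12 samples, and 1 with the added log2 limit. That limit left 2 interactions and 4 parental differences. Over all 11762 genes tested in HepG2, 2357 were called as reported, and 2266 and 2272 under these scalings. With the GC trend off 4047 were called, with the block 3418, with both 4075 and in the fit of all 12 samples 3888. With the GC trend off the lists had 24 calls in HepG2, or 25 with the block.

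Directions turned as follows. With the GC trend off, with or without the block, the Huh7 difference was 0.15 for REL, −0.037 for NFKB2, −0.30 for RELB and −0.029 for ICAM1, the HepG2 difference of REL was −0.10 and its interaction 0.20. Against the mean of all samples, a choice added after seeing the data, REL between the parental lines was −0.0068. Upper-quartile and median-ratio scaling gave 0.083 and 0.019 for NFKBIE in Huh7, and −0.081 and −0.059 for REL in HepG2. Without 1 sample, the Huh7 difference ran from −0.0026 to 0.30 for RELB and from −0.23 to 0.13 for NFKBIE, and the HepG2 difference from −0.13 to 0.11 for RELA and from −0.11 to 0.15 for REL. The cause was not tested.

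Same-numbered resistant and parental samples deviated together with r of 0.08, 0.06 and −0.23 in Huh7 and 0.25, 0.44 and −0.01 in HepG2. Differently numbered ones had r of −0.33 to 0.28 in Huh7 and −0.42 to 0.21 in HepG2. The numbers were not taken as pairs in the fits as reported, although in HepG2 0.25 and 0.44 exceed all differently numbered values. With the replicate block, 5 members were called in Huh7 and 4 in HepG2. Over all genes, the block moved the calls from 8797 to 8609 in Huh7 and from 2357 to 3418 in HepG2. Scaling moved the split of all calls. HepG2 had 1366 higher and 991 lower genes as reported and 918 and 1348 under upper-quartile scaling, which moved the median of all genes from 0.12 to 0.00. The interaction had 3182 and 4586 as reported and 4455 and 3455 under that scaling, and the parental comparison 5490 and 3780 against 4557 and 4634.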

Other observations

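Ratios of FPKM within a sample do not depend on the scaling of libraries, and were formed after the values had been seen. They still carry any trend with GC content, which was not taken off here. RELB stood at 0.376 ± 0.0492 of RELA in parental and 0.0790 ± 0.0216 in resistant HepG2 samples, and at 0.274 ± 0.0248 and 0.172 ± 0.0277 in Huh7 (SD, n = 3; exact permutation p = 0.1 in each, the smallest 3 against 3 samples can give). Resistant samples were below parental samples in both lines, although the FPKM of RELB itself overlapped in Huh7. NFKB2 relative to NFKB1 did not follow this, at 0.188 ± 0.0165 in parental and 0.235 ± 0.0102 in resistant Huh7 samples, without overlap (exact permutation p = 0.1), and at 0.540 ± 0.0877 and 0.392 ± 0.0687 in HepG2, with overlap (exact permutation p = 0.2). The GC content is 61.5% for NFKB2 and 49.6% for NFKB1. With the GC trend off, their Huh7 differences of log2(FPKM + 1) were −0.037 and 0.10. The ratio itself was not formed with the trend off, so the part of GC content in its Huh7 rise was not tested. TNFAIP3 stood at 1.07 ± 0.191 of NFKBIA in parental and 0.237 ± 0.0519 in resistant Huh7 samples, which did not overlap. In HepG2 the same ratio was 1.74 ± 0.612 and 1.33 ± 0.146, which did (exact permutation p = 0.4). NFKBIA relative to RELA was 0.483 ± 0.0308 in parental and 0.461 ± 0.0539 in resistant Huh7 samples and 0.714 ± 0.0530 and 0.651 ± 0.110 in HepG2, with overlap in both lines.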
